A study of Homo sapiens with 12 samples.

Results

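A set of 10 Notch pathway genes was followed in RD cells after knockdown of EHMT1: the receptors NOTCH1, NOTCH2 and NOTCH3, the ligands JAG1, JAG2 and DLL1, and the target genes HES1, HES4, HEY1 and NRARP. They were 10 of 61552 genes in the count tables and 10 of the 18646 genes tested, since all 10 passed the filter on low counts. They were selected on their place in the pathway with the change between EHMT1 siRNA and scrambled siRNA libraries already known, so that their values and calls in this contrast are a description and count as no independent test.

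RD, an established line, was derived from a human embryonal rhabdomyosarcoma, a tumour whose cells resemble immature skeletal muscle, and the samples carry the label FN-RMS. All cells were transfected with small interfering RNA (siRNA) in the reagent Lipofectamine RNAiMAX, and RNA was collected after 48 h. The control group received a scrambled siRNA (n = 3 libraries) and the other group an siRNA specific for EHMT1 (n = 3 libraries), a histone methyltransferase also called GLP. The labels do not say whether replicates were separate cultures or how many siRNA sequences were used, so the spread between libraries may be technical, and a set of SOX8 siRNA samples was not analysed here.

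In Notch signalling, a ligand on one cell (Delta-like or Jagged) binds a Notch receptor on its neighbour. The receptor is then cut by a membrane protease and by gamma-secretase, and its freed intracellular domain enters the nucleus and joins the DNA-binding protein RBPJ to switch on target genes. In skeletal muscle the pathway is known for keeping progenitor cells from differentiating. HES1, HES4 and HEY1 encode basic helix-loop-helix repressors, and NRARP encodes a small ankyrin-repeat protein that limits Notch signalling.

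Gene counts were 40639655 to 47258481 per library. EHMT1, the gene targeted, was at 130.9, 155.9 and 130.1 CPM (counts scaled to library size) with scrambled siRNA and at 53.2, 54.4 and 57.6 CPM with EHMT1 siRNA, a mean of 39.6% of the control mean. On the first principal component, scrambled replicate 2 lay apart (-36.4, against -16.0 and -9.16 for the other scrambled libraries) and on the second scrambled replicate 1 did (31.3, against -26.6 to 12.7 for the other 5). Values with a control library left out are given below where they bear on a result. Of 7 skeletal muscle markers, DES, MYOD1, MYOG and 3 others were counted and MYF5 was at 0 in all 6 libraries; their summed level was 1159 to 1327 CPM with scrambled siRNA and 1292 to 1353 CPM with EHMT1 siRNA. Among them MYL4, a myosin light chain gene, rose by 0.90 in log2 (edgeR, adjusted p = 0.004). CHRNA1, named after its value was seen, was at 638.1 ± 23.4 and 716.0 ± 5.35 CPM (SD, n = 3). Its log2 change of 0.17 did not pass (edgeR, adjusted p = 0.0566). By DESeq2 and by limma-voom 2 of these markers rose. The part of these markers in the Notch results was not tested. Endothelial markers, of interest because endothelium also uses Notch, summed to 18.9 to 20.003 CPM and 18.8 to 20.8 CPM. Most of this sum was TEK, at 16.7 and 16.9 mean CPM, and 7 of 9 were below 1 CPM in every library. Of 5 epithelial markers 4 were below 1 CPM in every library, as were all 5 blood cell markers. The other epithelial marker, CLDN4, was at 3.75 and 4.65 mean CPM.

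The promoters of 4 of the genes are shown. They are those of NOTCH3, HES4 and NRARP, which lay lower with EHMT1 siRNA, and of HES1, whose promoter is a textbook Notch target. JAG1 also lay lower, but its window is not shown. Each window runs from 250 bases before the start of the gene to 50 after it, taken from RefSeq on GRCh38.p14, 5′ to 3′ on the gene's strand. Capitals mark TGGGAA, the core of the site bound by RBPJ, searched on both strands. The windows lie at chr3:194135898-194136197 (plus strand) for HES1, chr1:1000048-1000347 (minus strand) for HES4, chr9:137302222-137302521 (minus strand) for NRARP and chr19:15200946-15201245 (minus strand) for NOTCH3.
HES1: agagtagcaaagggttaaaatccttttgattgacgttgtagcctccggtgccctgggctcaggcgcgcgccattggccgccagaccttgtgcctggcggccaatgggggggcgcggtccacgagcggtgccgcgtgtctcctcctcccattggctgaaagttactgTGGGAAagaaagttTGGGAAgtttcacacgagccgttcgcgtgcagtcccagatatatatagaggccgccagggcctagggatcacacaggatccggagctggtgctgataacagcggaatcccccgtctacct
HES4: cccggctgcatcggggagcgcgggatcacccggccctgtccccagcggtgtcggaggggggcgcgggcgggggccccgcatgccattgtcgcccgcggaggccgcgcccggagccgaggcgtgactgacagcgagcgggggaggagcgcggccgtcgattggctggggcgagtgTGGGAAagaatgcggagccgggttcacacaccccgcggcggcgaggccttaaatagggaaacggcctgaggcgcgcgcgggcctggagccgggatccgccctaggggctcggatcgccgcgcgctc
NRARP: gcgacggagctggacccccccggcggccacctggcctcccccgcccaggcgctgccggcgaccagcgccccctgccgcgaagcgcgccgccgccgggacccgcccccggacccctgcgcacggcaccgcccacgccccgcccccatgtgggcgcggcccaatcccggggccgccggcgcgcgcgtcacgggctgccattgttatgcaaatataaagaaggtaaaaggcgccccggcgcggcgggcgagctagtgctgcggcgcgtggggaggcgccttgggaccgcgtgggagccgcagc
NOTCH3: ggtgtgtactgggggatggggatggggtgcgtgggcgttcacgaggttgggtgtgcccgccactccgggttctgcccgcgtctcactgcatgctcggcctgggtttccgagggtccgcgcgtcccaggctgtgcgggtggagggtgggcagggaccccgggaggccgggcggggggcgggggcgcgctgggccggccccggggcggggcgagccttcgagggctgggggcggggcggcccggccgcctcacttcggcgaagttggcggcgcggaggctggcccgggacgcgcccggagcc

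RefSeq windows were found for 8 of the 10 genes, all but DLL1 and HEY1. HES1 held 2 RBPJ cores, at positions -84 to -79 and -70 to -65 with the first base of the gene as 0, and HES4 held 1, at -76 to -71. The other 6 windows held none. Among 12101 promoters of tested genes, 22.1% held at least 1 and 3.17% at least 2. Also searched were 3 motifs bound by HES and HEY proteins on both strands. The E box CACGTG was in 0 of 8 windows (9.80% of all promoters), CACGCG was in 4 (JAG1, JAG2, HES1 and NRARP; 17.9%), and the N box CACNAG was in 5 (NOTCH1, NOTCH2, NOTCH3, HES1 and NRARP; 35.1%). The 2 N box matches of NOTCH1 overlap each other and are the 2 strands of 1 stretch. GC content ran from 59.0% in HES1 to 79.7% in JAG2, against a median of 65% over all promoters. HES1 was the only window below that median, and NOTCH1, NOTCH3, JAG2, HES4 and NRARP lay above the upper quartile of 71.7%. The motif shares over all promoters were not matched for GC content. These matches are letters in a window, and binding was not measured.

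Before any comparison, the levels in scrambled siRNA libraries give the order of these Notch genes by RNA abundance. Levels between genes are compared per length, as RPKM (CPM per kilobase of exon). HEY1 was the most abundant of the 10, at 100.8 ± 1.72 RPKM (SD, n = 3), followed by NOTCH3 at 43.1 ± 2.60 RPKM. Both stood clear of the next gene in every library. JAG2 (19.3 ± 2.14 RPKM), NOTCH1 (15.8 ± 2.07 RPKM) and NOTCH2 (15.2 ± 0.789 RPKM) came next, each overlapping its neighbour in this order. HES4 followed at 11.3 ± 1.88 RPKM, and JAG1 and DLL1 at 6.09 ± 0.537 and 5.69 ± 0.971 RPKM, which overlapped. NRARP and HES1 were lowest and also overlapped, at 3.20 ± 0.540 and 2.66 ± 0.296 RPKM.

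With the longest coding transcript as the length, a choice added after the data were seen, NOTCH2 moved from the fifth to the third place, at 22.5 ± 1.16 RPKM (SD, n = 3). HES1 and NRARP also changed places at the low end. The choice of count column matters too. In the second strand column NOTCH1, NOTCH3, JAG2, HES4 and HEY1 were lower by more than 1 SD, and mean NOTCH2 lay above mean NOTCH1. NOTCH2 has near-identical partial copies (the NOTCH2NL genes) that its reads can also match, so that its level is uncertain. JAG2 shares 7.33% of its exon bases with a non-coding transcript on the same strand, and JAG1 shares 0.85% with an antisense transcript. In the unstranded counts used here, a read within the shared bases cannot be assigned to 1 of the transcripts. For JAG2, on the same strand, strand-specific counts could not do so either. Whether this lowers or raises the counts of these genes was not tested.

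**Figure D1:**
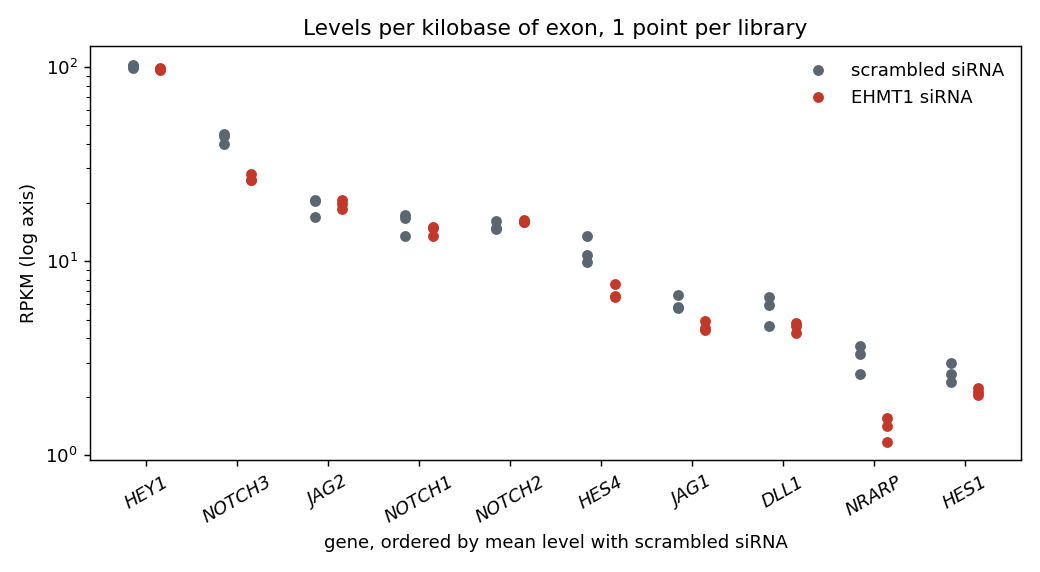
Levels of the 10 Notch genes per kilobase of exon (RPKM, log axis), ordered by the mean with scrambled siRNA, with 1 point for each of the 3 libraries of a group (grey: scrambled siRNA, red: EHMT1 siRNA). HEY1 lies near 100.8 RPKM in the control libraries and HES1 and NRARP near 3. The red points of NOTCH3, HES4, JAG1 and NRARP lie below all their grey points, and those of HES1 and HEY1 do so narrowly.

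In the fit across all genes, 4 of the 10 fell with EHMT1 siRNA: NOTCH3, JAG1, HES4 and NRARP, which are a receptor, a ligand and 2 targets. The count was 4 of 10, where 6.54% of all genes tested fell, and 0 of 10 rose, where 5.81% of all genes did (edgeR at a false discovery rate of 0.05). Without adjustment, 6 were lower and 0 higher at a p under 0.05. The share of all genes at an unadjusted p was not taken, here or for the lists below. The adjusted shares above do not apply to such counts. DESeq2 and limma-voom each gave 4 and 0. Over all genes, DESeq2 gave 1332 that fell and 998 that rose, and limma-voom 1157 and 1075. For 6 of 10, these 4 with HES1 and HEY1, every library of one group lay below all of the other, against 30.9% of all genes tested. Because the genes were picked with this contrast known, nothing is read from these shares. In bulk RNA, fewer cells with a transcript and less of it per cell cannot be told apart.

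Among the receptors, NOTCH3 (ENSG00000074181) was the one with a large difference. It was at 377.3, 423.5 and 414.0 CPM in scrambled replicates 1, 2 and 3 and at 246.7, 245.2 and 263.9 CPM in the EHMT1 siRNA replicates. All 3 EHMT1 siRNA libraries lay far below the lowest control. The mean fell to 62.2% of the control mean, a log2 change of -0.68 (SE 0.060). It was -0.74 without scrambled replicate 1 and -0.66 without scrambled replicate 2.

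NOTCH1 (ENSG00000148400), the receptor best known from T-cell leukaemia, was at 139.3, 178.8 and 173.8 CPM in the controls and at 139.9, 153.7 and 155.1 CPM with EHMT1 siRNA. The groups overlapped through scrambled replicate 1, which was as low as the lowest EHMT1 siRNA library. The log2 change was -0.13 (SE 0.079), and it was -0.24 without scrambled replicate 1, where it passed the threshold, and -0.07 without scrambled replicate 2. NOTCH2 (ENSG00000134250) was at 247.3, 249.0 and 271.1 CPM against 266.9, 275.1 and 268.5 CPM, with overlapping groups and a log2 change of 0.08 (SE 0.057). It was 0.05 without scrambled replicate 1 or 2 and 0.12 without scrambled replicate 3, and passed in none of these. NOTCH3 thus made up 57.3% to 58.8% of the summed RPKM of the 3 receptors in control libraries and 45.6% to 47.6% in EHMT1 siRNA libraries. The sum itself was 74.1 ± 5.04 and 57.3 ± 1.70 RPKM (SD, n = 3 each).

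Among the ligands, JAG1 (ENSG00000101384), a Jagged ligand, was at 62.4, 53.6 and 53.9 CPM in the controls and at 45.7, 42.1 and 41.0 CPM with EHMT1 siRNA. The groups did not overlap, and the mean fell to 75.9% of the control mean. The log2 change was -0.40 (SE 0.071), the smallest of the 4 that fell. It was -0.33 without scrambled replicate 1, the library in which JAG1 was highest, and -0.44 without scrambled replicate 2. Its relative JAG2 (ENSG00000184916) was at 107.7, 132.4 and 130.1 CPM against 119.2, 126.1 and 132.3 CPM. The groups overlapped, and the log2 change of 0.03 (SE 0.073) turned to -0.06 without scrambled replicate 1.

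DLL1 (ENSG00000198719), a Delta-like ligand, was at 14.9, 21.0 and 19.2 CPM in the controls and at 14.9, 13.8 and 15.5 CPM with EHMT1 siRNA. Scrambled replicate 1 sat among the EHMT1 siRNA libraries, while the other 2 controls lay above all of them. The log2 change was -0.31 (SE 0.106) and did not pass the threshold with all libraries. It was -0.45 without scrambled replicate 1, where it passed, and -0.21 without scrambled replicate 2, where it did not. Summed over the 3 ligands, the level was 31.1 ± 2.56 RPKM in the controls and 28.9 ± 0.918 RPKM with EHMT1 siRNA (SD, n = 3 each), with JAG2 as 59.8% to 63.4% and 66.1% to 69.2% of it.

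Among the target genes, NRARP (ENSG00000198435) had the largest difference of the 10. It was at 4.62, 6.48 and 5.91 CPM in the controls and at 2.08, 2.51 and 2.76 CPM with EHMT1 siRNA. No library of one group reached the other, and the mean fell to 43.2% of the control mean. The log2 change was -1.21 (SE 0.158). It was -1.34 without scrambled replicate 1 and -1.11 without scrambled replicate 2.

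HES4 (ENSG00000188290) was at 11.03, 11.99 and 15.05 CPM in the controls and at 7.31, 7.38 and 8.50 CPM with EHMT1 siRNA. The groups did not overlap, and the log2 change was -0.71 (SE 0.115), or -0.81 without scrambled replicate 1 and -0.58 without scrambled replicate 3. HES4 also had the smallest share of its strand counts in the second strand column, 77.2%, where the libraries as a whole had 87.1% to 89.0%. Counted in that column alone its log2 change was -0.70 (SE 0.116), and in the first strand column -0.74 (SE 0.197), so that the difference was of like size in both.

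HES1 (ENSG00000114315), the best known of the HES targets, was at 5.39, 6.13 and 4.92 CPM in the controls and at 4.38, 4.60 and 4.22 CPM with EHMT1 siRNA. The groups came close without overlapping. Its log2 change of -0.31 (SE 0.124) did not pass the threshold, nor did it with any 1 library left out, where it ran from -0.39 to -0.23. HEY1 (ENSG00000164683) was at 324.9, 331.5 and 320.5 CPM in the controls and at 313.8, 311.0 and 317.5 CPM with EHMT1 siRNA. Its groups did not overlap either, but the EHMT1 siRNA mean was 96.5% of the control mean, with a log2 change of -0.05 (SE 0.053).

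**Figure D2:**
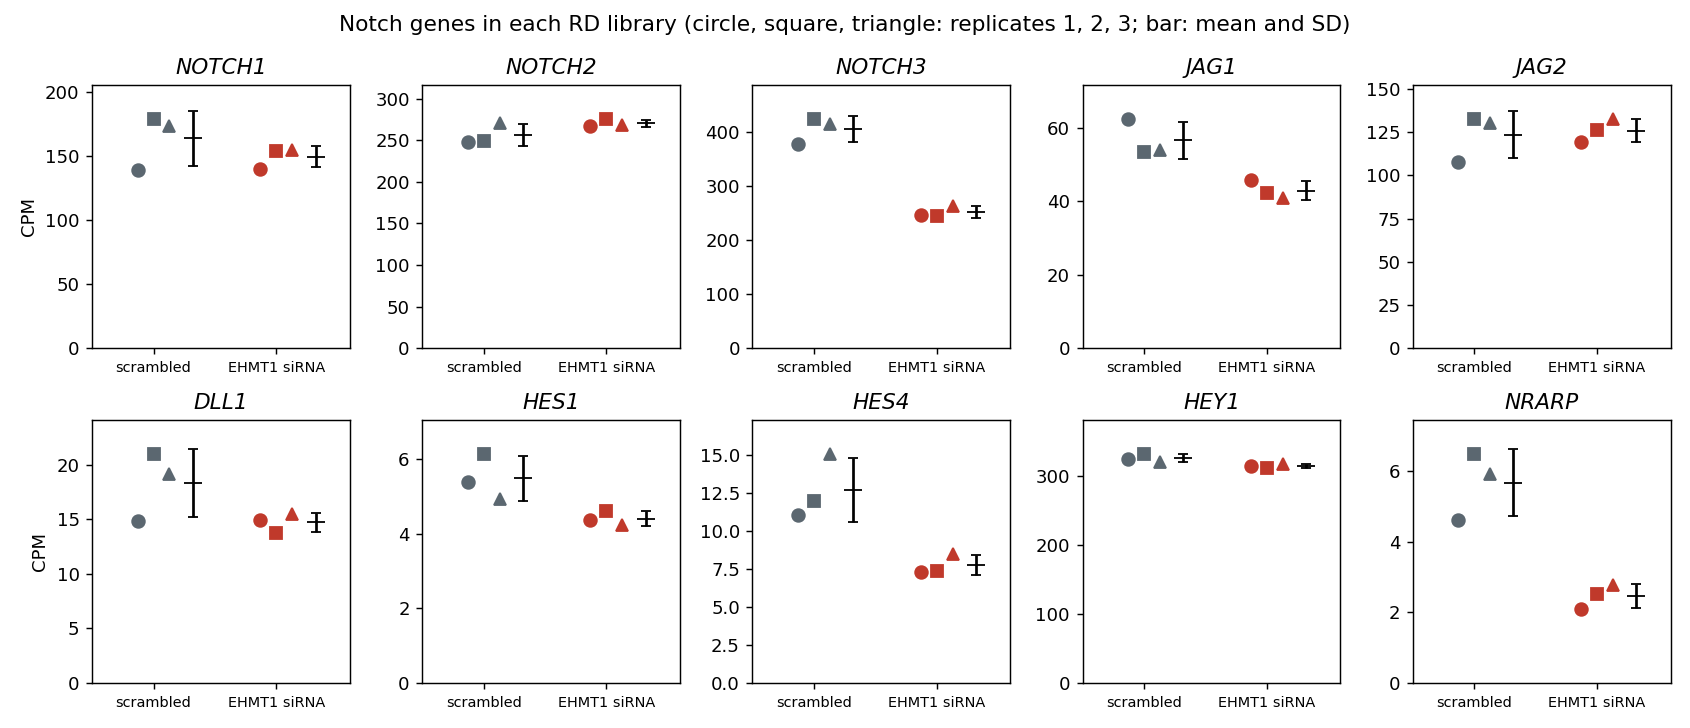
CPM of each Notch gene in each library, with axes that start at 0 (circle, square and triangle: replicates 1, 2 and 3; black bar: mean and SD, n = 3). NOTCH3, JAG1, HES4 and NRARP lie lower in all 3 EHMT1 siRNA libraries, and HES1 and HEY1 do so narrowly. NOTCH1, NOTCH2, JAG2 and DLL1 overlap between the groups.

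The target genes thus did not share one size of difference. The most abundant, HEY1, was at 96.5% of its control mean, HES1 at 80.3%, HES4 at 60.9% and NRARP at 43.2%. Within the target genes, HEY1 was 83.8% to 87.0% of the summed RPKM in the controls and 89.8% to 90.8% with EHMT1 siRNA.

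**Figure D3:**
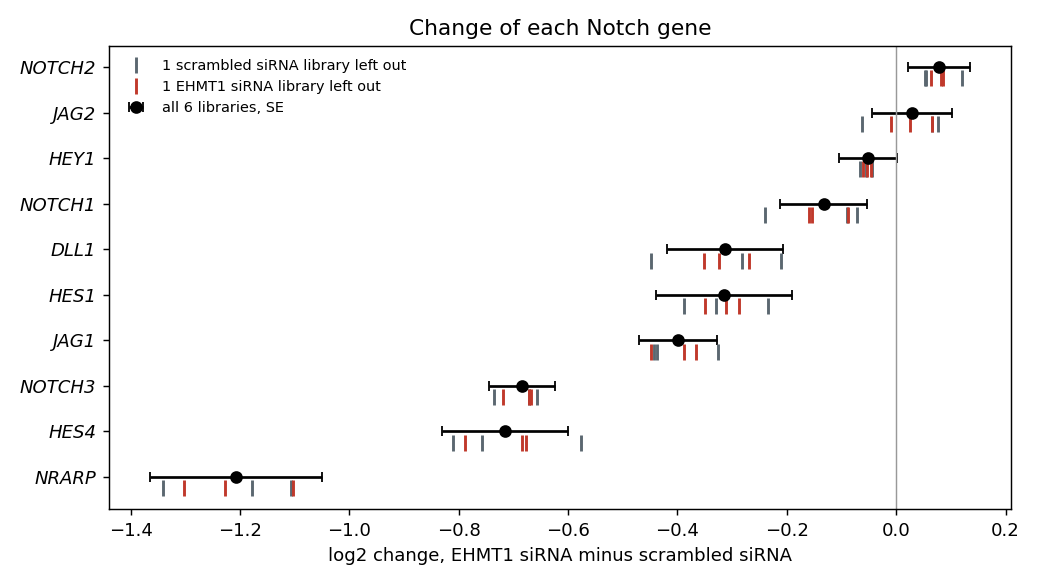
Log2 change of each Notch gene between EHMT1 siRNA and scrambled siRNA (black point: all 6 libraries, bar: SE), with the value after leaving out each scrambled (grey tick) or EHMT1 siRNA (red tick) library. NRARP is lowest at -1.21, NOTCH3, HES4 and JAG1 stay well below 0 with any library left out, and JAG2 lies on both sides of 0.

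The control libraries differed among themselves in these genes. Scrambled replicate 1 was the lowest of the 3 controls for 7 of the 10 (NOTCH1, NOTCH2, NOTCH3, JAG2, DLL1, HES4 and NRARP), and scrambled replicate 2 the highest for 7. Over all genes tested, replicate 1 was lowest for 32.2% and replicate 2 highest for 36.5%. JAG1 went the other way and was highest in replicate 1. The spread within the controls exceeded that within the EHMT1 siRNA libraries for all 10 genes, with a median coefficient of variation of 11.1% against 5.43%. Among the 11076 genes tested with at least 5 CPM, the medians were 6.87% and 3.41%, and 8889 were more spread in the controls.

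The other genes of the pathway were taken from lists of 74 genes that left out the 10 above. Those lists hold what remains after genes with known changes were set apart. With all 6 libraries, each edgeR count stands beside the same background of 5.81% of genes that rose and 6.54% that fell. Of 68 tested, 4 rose and 5 fell by the same test, and their median log2 change was 0.00, as was that of all genes tested. Without scrambled replicate 2 the counts were 11 that rose and 8 that fell. Calls over all genes were also more in that fit, 1625 and 1923 against 1084 and 1220 with all libraries. With any other library left out 1 or 2 rose and 3 to 6 fell, where 452 to 1032 and 484 to 1261 of all genes did. From each list the genes with the smallest adjusted p are named below, whether or not they passed.

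Of 20 tested genes that modify, sort or degrade receptors and ligands, 3 rose and 2 fell. NUMBL, a relative of the Notch inhibitor NUMB, fell, with 71.2 ± 5.44 CPM in the controls and 54.7 ± 2.44 CPM after knockdown (SD, n = 3), or -0.38 on the log2 scale (SE 0.066; edgeR, adjusted p = 0.00125). NEURL1B, a ubiquitin ligase for Notch ligands, fell as well, with 7.14 ± 0.723 and 4.98 ± 0.0780 CPM, or -0.52 in log2 (edgeR, adjusted p = 0.00657). Both calls held with any 1 library left out. The protease FURIN, which cuts the Notch precursor during its maturation, rose by 0.27 (edgeR, adjusted p = 0.0206), but that call held only without scrambled replicate 2 among the 6 fits with 1 library left out. DTX2, a ubiquitin ligase of the Deltex family named after its value was seen, rose by 0.21 (edgeR, adjusted p = 0.0447), and its call likewise held only without scrambled replicate 2.

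MFNG, a Fringe enzyme that adds sugars to Notch receptors, was near the detection floor. It was at 0.492, 0.401 and 0.0706 CPM in the controls and at 0.875, 0.892 and 0.830 CPM with EHMT1 siRNA, or 1.41 in log2 (SE 0.425; edgeR, adjusted p = 0.0378). This rise lost its call without scrambled replicate 3, where the log2 change was 0.94, and without any 1 EHMT1 siRNA library, and DESeq2 did not call it.

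No change passed the test among the 8 proteases that cut the receptor, ADAM10, ADAM17 and the gamma-secretase subunits (edgeR; at an unadjusted p under 0.05, 1 was higher and 0 were lower; DESeq2 and limma-voom gave 0). ADAM17, the closest, was at 82.7 ± 1.12 and 90.5 ± 3.34 CPM (SD, n = 3), or 0.13 in log2 (SE 0.056; edgeR, adjusted p = 0.155). Among the receptors and ligands outside the 10, 4 of 5 were tested and 0 passed (edgeR; 0 higher and 1 lower at an unadjusted p under 0.05; DESeq2 and limma-voom gave 0). DLL3, at 7.93 and 6.67 mean CPM, differed by -0.25 in log2 (edgeR, adjusted p = 0.125). NOTCH4 and DLL4, receptor and ligand of blood vessels, were below 1 CPM on average in both groups.

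Of 26 tested genes of the nuclear complex and its co-repressors, 2 fell and 0 rose by edgeR, DESeq2 and limma-voom alike. By edgeR at an unadjusted p under 0.05, 2 were higher and 3 lower. CTBP1, a co-repressor, fell, with 104.0 ± 2.33 CPM in the controls and 76.4 ± 2.01 CPM after knockdown (SD, n = 3), or -0.44 in log2 (SE 0.055; edgeR, adjusted p = 6.73e-05). It kept its call with any 1 library left out. TLE3, a co-repressor of the Groucho family to which HES proteins bind, fell too, by 0.31 in log2 (edgeR, adjusted p = 0.00584), a call lost without EHMT1 siRNA replicate 2. SNW1 at -0.18 and the demethylase gene KDM5A at 0.15 did not pass (edgeR, adjusted p = 0.0732 and 0.0847). SNW1 passed without scrambled replicate 3 (-0.24) and with the replicate block (-0.18), and KDM5A without scrambled replicate 2 (0.14). RBPJ itself, named after its value was seen, was at 98.3 and 106.7 mean CPM and differed by 0.12 in log2 (edgeR, adjusted p = 0.183).

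Of the HES and HEY relatives outside the 10, 4 of 8 were tested, 1 fell and 0 rose (edgeR, DESeq2 and limma-voom). By edgeR at an unadjusted p under 0.05, 0 were higher and 1 was lower. HES7, known from the segmentation clock, fell, with 2.53 ± 0.672 CPM in the controls and 1.34 ± 0.159 CPM after knockdown (SD, n = 3), or -0.91 in log2 (SE 0.212; edgeR, adjusted p = 0.0094). That call was lost without EHMT1 siRNA replicate 2. HEYL, the most abundant of these, was at 81.0 and 81.5 mean CPM and had a log2 change of 0.01 (SE 0.066), and HEY2 and HES6 did not pass either. Of 6 other reported targets, CCND1, the G1 cyclin, rose by 0.31 in log2 (SE 0.054; edgeR, adjusted p = 0.00139), and stayed called with any 1 library left out. SOX9, CDKN1A and SNAI2 did not pass, at 0.12, 0.13 and -0.05. Without scrambled replicate 2, SOX9 and CDKN1A passed, at 0.18 and 0.19, while CDKN1A was at 0.05 without scrambled replicate 1 and SOX9 at 0.06 without scrambled replicate 3.

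**Figure D4:**
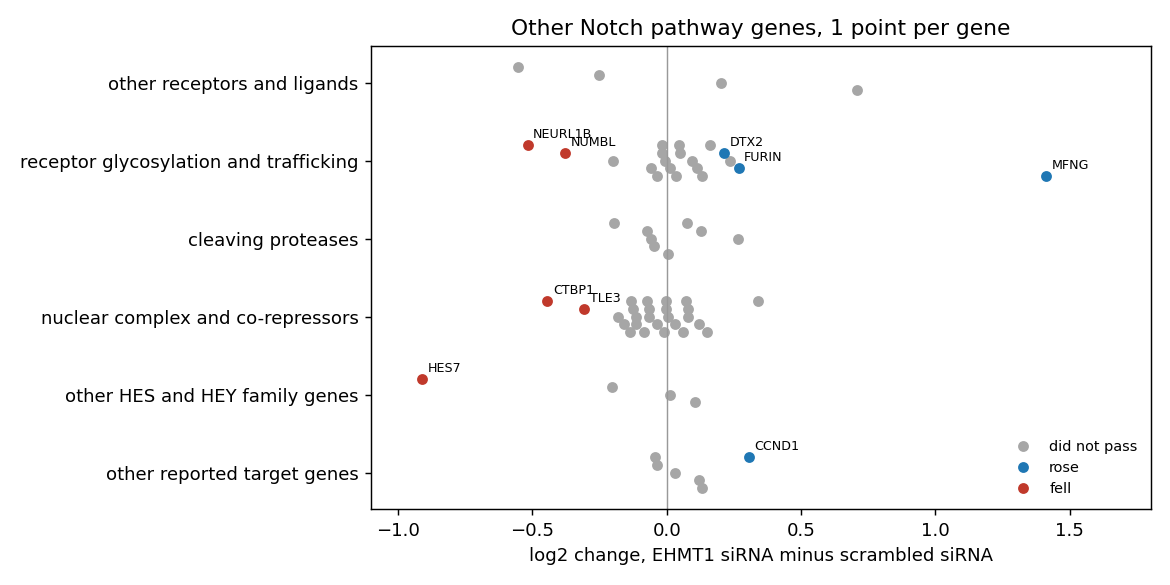
Log2 change between EHMT1 siRNA and scrambled siRNA of the 68 tested pathway genes outside the 10, by list (1 point per gene; blue: rose, red: fell, grey: did not pass edgeR's test at an adjusted p of 0.05). The 9 genes that passed are named, and the points of each list lie on both sides of 0.

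Muscle progenitor genes that Notch is known to act on were listed separately, and 1 of 5 tested rose while 0 fell (edgeR, DESeq2 and limma-voom). By edgeR at an unadjusted p under 0.05, 1 was higher and 2 were lower. PAX7, the transcription factor of muscle stem cells, rose, with 57.7 ± 3.13 CPM in the controls and 69.9 ± 1.65 CPM after knockdown (SD, n = 3), or 0.28 in log2 (edgeR, adjusted p = 0.0058). That call was lost without EHMT1 siRNA replicate 3. COL5A3 and COL5A1, collagen genes under Notch control in muscle stem cells, were at -0.26 and -0.17 and did not pass (edgeR, adjusted p = 0.0763 and 0.0907), nor did MYOG at -0.14. With the replicate number as a block, COL5A3 and COL5A1 both fell (-0.25 and -0.17). With 1 control left out, COL5A3 passed without scrambled replicate 3 (-0.35), and COL5A1 (-0.21) and MYOG (-0.25) without scrambled replicate 1. Without scrambled replicate 2, COL5A3 and COL5A1 were at -0.14 and -0.10, and MYOG was at -0.07 without scrambled replicate 3.

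The genes most like NOTCH3 across the 6 libraries were RAB5C, an endosomal GTPase (Pearson r = 0.999), CTBP1 (0.997) and TXNDC5, a disulfide isomerase (0.996), computed on log2 CPM over 12761 genes. Among those most like NRARP were KREMEN2, a receptor for Dickkopf inhibitors of Wnt signalling (0.995), and JUND, an AP-1 factor (0.995). With 6 points that share the same 2 groups, 292 genes reached an r over 0.95 with NOTCH3 and 219 with NRARP, so these neighbours only describe the pattern. The log2 changes of the 5 genes named differed widely, from -0.44 for CTBP1 to -1.40 for TXNDC5.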

How the data were processed

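Poly-A RNA libraries made with the NEBNext Ultra kit (named in the labels' protocols) gave the raw counts per gene that the authors deposited, 1 file per library, with unstranded and strand-specific columns. Per the submitters' processing notes, tools were STAR 2.5, HTSeq 0.6.1, bcl2fastq, CASAVA and DESeq2, with hg19 as the build; the files have the layout of STAR's gene counts. Of 61552 identifiers, 58352 were in GENCODE release 29 (GRCh38), which gave exon lengths. The set is later than hg19, so only RefSeq promoters carry coordinates. Reads that named no gene (20.0% to 21.2%) stayed out. A count of 3 is 0.0635 to 0.0738 CPM.

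The unstranded column was fitted with edgeR 4.0.16 (R 4.3.3) after filterByExpr at a minimum count of 10, with TMM factors, a robust quasi-likelihood fit on group and Benjamini-Hochberg adjustment over 18646 genes, threshold 0.05. SEs are the absolute log2 change over the square root of F. The fit was tested on simulated counts with the same dispersion in both groups, so that test did not cover the wider spread of the controls. CPM use TMM factors, and log2 CPM in correlations a prior count of 2. Replicates of a group differed by more than sampling noise (chi-square per degree of freedom 2.98 to 21.0), so each counted as 1 sample. Groups came from sample titles. The 10 genes and all lists were chosen with earlier results of these data known. Named were EHMT1, the 10 genes, up to 4 tested genes per list with the smallest adjusted p, and the 3 genes most correlated with NOTCH3 and with NRARP, of which 1 is not reported here. Alternatives were RLE or upper quartile factors, no filter or 1 CPM in 3 or more libraries, limma-voom (limma 3.58.1), DESeq2 1.42.0, a replicate block, each strand column, a threshold of 0.01, and leaving out each library. Levels were also taken with RLE, the second strand column, a library left out, and another gene length.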

Additional observations from a re-analysis of the deposited data

How the results depend on the processing

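All 10 Notch genes kept the sign of their log2 change under RLE and upper quartile factors, both filters, DESeq2, limma-voom, the replicate block and each strand column. JAG2 changed sign without scrambled replicate 1 (-0.06) and without EHMT1 siRNA replicate 3 (-0.01). In the first strand column, which holds few counts, DLL1 was at -0.07 and 1 of the 10 fell, and of the other pathway genes 0 rose and 1 fell. NOTCH3, JAG1, HES4 and NRARP passed the threshold with any 1 library left out, and DLL1 also passed with no filter (-0.31), the replicate block (-0.30) and the second strand column (-0.33). Of the other pathway genes, 1 rose at an adjusted p of 0.01, and leaving out libraries singly gave 1 to 11 that rose and 3 to 8 that fell; the cause was not tested. Over all genes, the first strand column gave 90 that rose and 87 that fell, and leaving out an EHMT1 siRNA library 452 to 565 and 484 to 607, against 1084 and 1220. Without scrambled replicate 2, 1625 rose and 1923 fell. With the replicate block 5 of the other pathway genes rose and 6 fell, and of the muscle progenitor genes 1 rose and 2 fell. Over all genes the block also gave more calls, 1474 that rose and 1632 that fell. Deviations of same-numbered libraries correlated at 0.056, 0.015 and 0.025. Each EHMT1 siRNA library correlated best with the scrambled library of its own number. Scrambled replicate 2 correlated slightly more with EHMT1 siRNA replicate 3 (0.019) than with its own number. Values this small cannot tell whether the libraries were made in pairs, and the main fit did not pair them. With the second strand column, levels moved beyond 1 SD for NOTCH1 (13.5 RPKM), NOTCH3 (38.4), JAG2 (16.9), HES4 (8.75) and HEY1 (94.4). Mean NOTCH2 then lay above mean NOTCH1 in the order of levels. Genes under about 0.07 CPM cannot be told from 0 at this depth.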
